A study of Mus musculus with 6 samples.

Results

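The pars tuberalis is a thin sheet of pituitary tissue that covers the median eminence, directly below the arcuate nucleus (ARC) of the hypothalamus. Its thyrotrophs make thyroid-stimulating hormone (TSH), a dimer of the common glycoprotein hormone alpha subunit and a TSH-specific beta subunit, and they carry the melatonin receptor MT1, through which the length of the night sets TSH output. TSH released there acts on the TSH receptor of neighbouring tanycytes, the cells that line the third ventricle, and so raises the local activation of thyroid hormone. Gonadotrophs, which make luteinizing hormone (LH) and follicle-stimulating hormone (FSH) with the same alpha subunit, are also found in this tissue. Described here are 8 genes of this system out of 24015 in the deposited counts, chosen by symbol. They are the hormone subunits *Cga*, *Tshb*, *Lhb* and *Fshb*, the transcription factor *Pitx1*, the melatonin receptor *Mtnr1a*, the transcriptional coactivator *Eya3* and the TSH receptor *Tshr*. The set was proposed because one control library had been seen to lack these transcripts, so the levels per library are a description and carry no test.

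RNA was sequenced from hand-dissected ARC of adult females on a background labelled as mixed CD-1, 129P2 and C57BL/6 (the methods leave out C57BL/6 for this line). There were 3 controls (Esr1fl/fl), with floxed *Esr1* but no Cre, and 3 mutants (Esr1fl/fl;Nkx2-1-Cre), in which the *Nkx2-1* promoter drives Cre in the basal hypothalamus and removes estrogen receptor alpha. Both genotypes were homozygous for the floxed alleles, and no group carried Cre alone, so Cre and the deletion cannot be told apart. All 8 genes passed the filter on low counts, as did 15236 genes in all. Levels are given as CPM, a gene's counts as a share of its library's total in the usual unit, with totals scaled by TMM, a method that assumes that most genes are equal between libraries.

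The libraries held between 11792440 and 17877137 counts on genes, and 3 counts, taken as the floor, corresponded to between 0.175 and 0.248 CPM. The floor and the intervals below cover counting error only. The deleted gene, *Esr1*, had 64.5, 57.5 and 48.5 CPM among controls 1, 2 and 3, while mutants 1, 2 and 3 had 11.8, 9.55 and 7.06 CPM. Every library therefore matched its genotype label. Control replicate 2 stood apart from the rest. In that library 75 of the 15236 tested genes lay at under 1/10 of the lowest of the other 5 libraries, against between 1 and 4 genes in each of the others. The summed level of 10 ARC neuron genes, which include *Agrp*, *Pomc* and *Npy*, was 831, 895 and 843 CPM in controls 1, 2 and 3. In mutants 1, 2 and 3 it was 1493, 991 and 1122 CPM, each above every control. The transcripts that define the ARC were thus present in all 6.

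*Cga*, which encodes the alpha subunit shared by TSH, LH and FSH, was the most abundant of the 8 genes. Controls 1, 2 and 3 had 582, 3.26 and 406 CPM, and mutants 1, 2 and 3 had 468, 396 and 372 CPM, the order kept for every gene that follows. The other 5 libraries lay close together, and control replicate 2 lay far below them. Its 56 counts there put *Cga* 125-fold under the median of the other 5 libraries (95% Poisson interval of the count in that library, 96 to 165). *Cga* lies on chromosome 4 of NCBIM37 at chr4:34841028-34854619 on the plus strand, and 305 bases of its exons overlap those of the lincRNA 2410114N07Rik on the opposite strand. That lincRNA had between 0 and 3 counts in every library. The exons of *Lhb* overlap those of *Ruvbl2*, on the opposite strand, by 3 bases.

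*Tshb*, the subunit that makes the dimer TSH, was at 140.2, 1.92 and 70.6 CPM in controls and at 89.3, 104 and 73.7 CPM in the mutants. The pattern was that of *Cga*, with control replicate 2 lowest by 46.5-fold against the median of the others (33.1 to 67.6). *Fshb*, the beta subunit of FSH, was at 14.8, 0.0582 and 6.10 CPM in controls and at 7.26, 4.90 and 4.66 CPM in mutants. A single read was counted in control replicate 2, 105-fold under the median of the others with a wide interval of 18.8 to 4140. *Lhb*, the beta subunit of LH, was the least abundant of the 4, at 8.24, 0.582 and 3.30 CPM in controls and 1.82, 1.51 and 2.33 CPM in mutants. It was 4.01-fold under the median of the others in control replicate 2 (2.18 to 8.36). In bulk tissue, fewer cells of a type and less RNA per cell cannot be told apart.

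**Figure D1:**
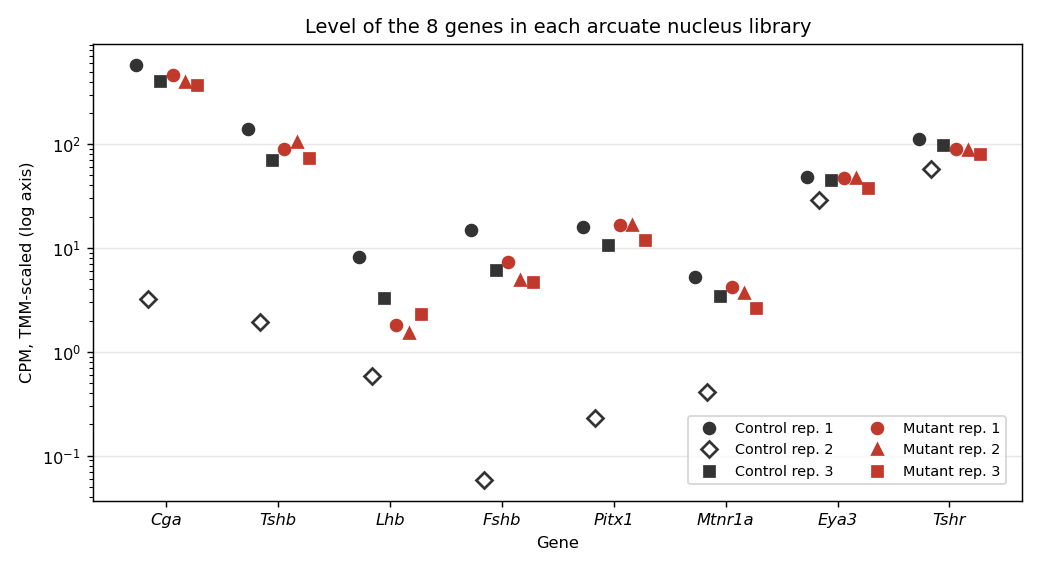
Level of each of the 8 genes in each library, in CPM with TMM-scaled library sizes on a log axis, with controls in black and mutants in red and control replicate 2 as an open diamond. For *Cga* 5 libraries sit between 372 and 582 CPM and the open diamond at 3.26 CPM, while for *Eya3* and *Tshr* the diamond lies just under the rest.

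The 250 bases upstream of the RefSeq transcription start are shown for the 4 hormone subunit genes because the *Cga* product pairs with each of the other 3 to form a hormone. The sequences come from RefSeq promoters of GRCm38.p6, and each was found once, without a mismatch, in NCBIM37, whose coordinates are given. Capitals mark the TATA box (TATAAA, on the gene's strand), the homeodomain core that Pitx factors recognise (TAATC or its reverse complement GATTA) and the core element of nuclear receptors such as SF-1 (TGACCT or AGGTCA).
Cga, chr4:34840778-34841027, plus strand: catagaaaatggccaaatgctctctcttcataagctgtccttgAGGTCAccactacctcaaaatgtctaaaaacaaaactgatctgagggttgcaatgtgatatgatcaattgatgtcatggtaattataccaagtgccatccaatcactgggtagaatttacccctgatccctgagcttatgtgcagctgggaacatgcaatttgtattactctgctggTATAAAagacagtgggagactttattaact
Tshb, chr3:102586638-102586887, minus strand: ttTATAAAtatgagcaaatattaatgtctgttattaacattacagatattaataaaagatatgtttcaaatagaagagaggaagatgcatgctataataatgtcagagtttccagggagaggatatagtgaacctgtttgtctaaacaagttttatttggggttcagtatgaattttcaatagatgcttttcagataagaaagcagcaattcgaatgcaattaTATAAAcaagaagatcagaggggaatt
Lhb, chr7:52676066-52676315, plus strand: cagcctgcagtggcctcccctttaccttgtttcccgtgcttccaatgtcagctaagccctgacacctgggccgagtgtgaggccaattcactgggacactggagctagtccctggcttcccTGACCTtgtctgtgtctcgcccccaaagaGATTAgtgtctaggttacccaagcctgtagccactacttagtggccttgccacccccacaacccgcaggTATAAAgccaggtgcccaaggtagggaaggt
Fshb, chr2:106899809-106900058, minus strand: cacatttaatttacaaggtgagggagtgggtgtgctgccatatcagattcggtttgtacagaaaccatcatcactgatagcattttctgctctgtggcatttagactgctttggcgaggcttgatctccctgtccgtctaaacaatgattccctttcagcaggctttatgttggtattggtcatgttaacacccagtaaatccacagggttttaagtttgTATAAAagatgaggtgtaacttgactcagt

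All 4 subunit promoters held TATAAA, which starts at position -30 in *Cga* and *Fshb*, -31 in *Lhb* and -27 in *Tshb*, and *Tshb* had a further copy at -248. Of 32851 promoters of the same length, 7.59% held it. The Pitx core was found in *Lhb* alone, at -100 on the opposite strand, and 19.8% of all promoters held it on either strand. The nuclear receptor element was found in *Cga* at -207 and in *Lhb* at -129, against 14.0% of all promoters. *Tshb* held a D-box core (TTANNTAA, either strand, the kind of element at which EYA3 works with PAR bZIP factors) at -30, where it overlaps the TATA box, and a GATA site (AGATAA, either strand) at -58. Among all promoters 5.43% held the D-box core and 9.99% the GATA site. The promoters of *Mtnr1a* and *Eya3* had neither TATAAA nor the Pitx core, and that of *Mtnr1a* held an E-box (CACGTG), as did 6.02% of all. Of the 8 genes 6 matched the promoter table by symbol, without *Pitx1* and *Tshr*. A match describes the letters in this window and is not a measurement of binding.

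*Pitx1*, a homeodomain factor of the anterior pituitary lineage that activates hormone subunit genes, was at 15.9, 0.233 and 10.6 CPM in controls and at 16.7, 16.5 and 11.99 CPM in mutants. The 4 reads of control replicate 2 put it 68.2-fold under the median of the others (26.7 to 250). *Mtnr1a*, the MT1 receptor, was at 5.23, 0.407 and 3.44 CPM in controls and at 4.21, 3.64 and 2.66 CPM in mutants, 8.95-fold lower in control replicate 2 than the median of the others (4.34 to 22.3). Both genes were thus above the floor in all 6 libraries and lowest in the same one.

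*Eya3* and *Tshr* did not share the size of this deficit. *Eya3*, whose product coactivates *Tshb* under long days, was at 48.5, 29.2 and 44.9 CPM in controls and 46.9, 46.7 and 37.8 CPM in mutants. *Tshr*, the receptor through which tanycytes sense TSH, was at 112, 57.8 and 97.3 CPM in controls and 90.8, 88.5 and 80.5 CPM in mutants. Control replicate 2 was lowest for both, 1.60-fold under the median of the other 5 for *Eya3* (1.47 to 1.75) and 1.57-fold for *Tshr* (1.48 to 1.67). Control replicate 2 was thus the lowest library for 8 of 8 genes, the pattern for which the set was chosen, and it was the lowest for 21.7% of all tested genes.

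Divided by the exon length in the GENCODE annotation of NCBIM37, the genes can be set in order. Over the 5 libraries other than control replicate 2, the median level was 426 CPM per kb for *Cga* and 138 for *Tshb*, followed by 18.6 for *Tshr*, 8.28 for *Eya3*, 5.99 for *Pitx1*, 3.81 for *Fshb*, 2.41 for *Mtnr1a* and 0.932 for *Lhb*. Over those libraries the ranges of *Cga*, *Tshb*, *Tshr* and *Eya3* did not overlap with the next gene in this order, whereas those of *Pitx1*, *Fshb* and *Mtnr1a* did. *Eya3* did overlap with *Fshb*, which was at 9.255 CPM per kb in control replicate 1, where *Eya3* was at 8.59. The exons annotated for *Lhb* extend upstream of the RefSeq start and add to its length. In control replicate 2 the order differed, with *Tshr* at 11.9 and *Eya3* at 5.17 CPM per kb above *Cga* at 3.42 and *Tshb* at 2.98.

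Counts of one gene beside those of *Cga* in the same library do not depend on scaling. *Tshb* made up between 14.8% and 20.9% of the sum of *Tshb* and *Cga* counts in 5 libraries, and 37.1% in control replicate 2 (Wilson 95% interval 27.8 to 47.4). *Mtnr1a* made up between 0.711% and 0.912% of its sum with *Cga* in the 5 libraries and 11.1% in control replicate 2 (5.49 to 21.2). *Lhb* made up between 0.379% and 1.397%, and 15.2% in control replicate 2 (8.44 to 25.7). For these 3 genes the share in control replicate 2 was the highest of the 6, as it was for *Pitx1*, *Eya3* (89.96%) and *Tshr* (94.66%). *Pitx1* had 6.67% there (2.62 to 15.9), an interval that overlapped those of the other libraries, at between 2.55% and 4.01%. *Fshb* had 1.75% there (0.310 to 9.29), inside the range of 1.22% to 2.48% elsewhere. These shares are a description of 1 library, and their intervals leave out the spread between animals.

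**Figure D2:**
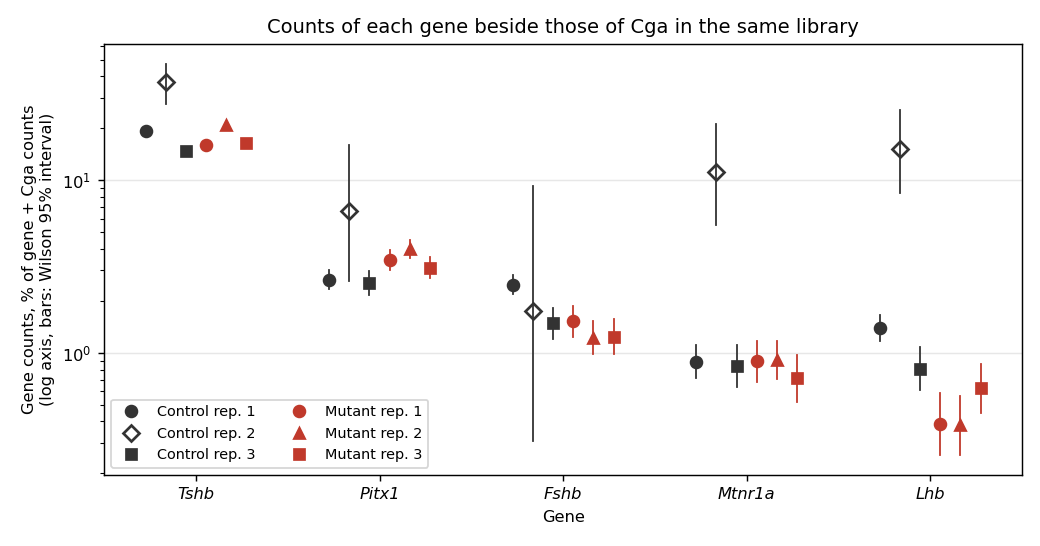
Counts of 5 genes as a percentage of the sum of that gene's and *Cga* counts in each library, on a log axis, with Wilson 95% intervals as bars, controls in black, mutants in red and control replicate 2 as an open diamond. The diamond stands above the other libraries for *Tshb* (37.1%), *Pitx1* (6.67%), *Mtnr1a* (11.1%) and *Lhb* (15.2%) and lies among them for *Fshb* (1.75%).

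Among the 5 similar libraries the gonadotroph subunits varied most. *Lhb* spanned 5.47-fold from lowest to highest and *Fshb* 3.18-fold, with control replicate 1 highest for both. *Tshb* spanned 1.99-fold, *Mtnr1a* 1.96-fold, *Pitx1* 1.58-fold and *Cga* 1.56-fold. *Tshr* and *Eya3* spanned 1.40-fold and 1.28-fold.

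The question of the study, whether loss of estrogen receptor alpha changes ARC transcripts, was then asked of the 8 genes in the fit over all genes. With edgeR's quasi-likelihood test and Benjamini-Hochberg adjustment, 0 of the 8 genes passed at an adjusted p-value of 0.05, where 0.118% of all tested genes did. None had an unadjusted p-value under 0.05, against 8.85% of all genes. DESeq2, which called 1.27% of the genes it tested, and limma voom called 0 of the 8 as well. The mutants and controls overlapped in all 8 genes, while 15.8% of all tested genes had genotypes that did not overlap. The set was chosen on the same libraries, so nothing is read from these counts.

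*Cga* averaged 330 ± 297 CPM among controls and 412 ± 49.8 CPM among mutants (SD, n = 3 each), and mutant over control was 0.32 on the log2 scale (standard error 1.49, edgeR's adjusted *p* = 0.977). *Tshb* averaged 70.9 ± 69.2 and 89.1 ± 15.3 CPM (SD, n = 3 each), a log2 difference of 0.33 (standard error 1.26, edgeR's adjusted *p* = 0.974). For *Cga*, *Tshb*, *Fshb* and *Pitx1* the standard error was over 1, and control replicate 2 decided both the error and the direction of several estimates. Without that library the log2 difference was -0.26 for *Cga* (standard error 0.16, edgeR) and for *Tshb* -0.25 (standard error 0.35), the opposite sign to that with all 6. *Mtnr1a* went from 0.22 to -0.32 and *Eya3* from 0.10 to -0.09, while *Pitx1* went from 0.77 to 0.18.

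*Lhb* kept a negative estimate with and without that library. EdgeR put the log2 difference at -1.09 (standard error 0.83, adjusted *p* = 0.781) with all 6 samples and -1.62 (standard error 0.40, adjusted *p* = 0.193) without control replicate 2. Without control replicate 1, the library highest for *Lhb* and *Fshb*, the log2 difference was -0.013 for *Lhb* and 0.90 for *Fshb*. In the fit without control replicate 2 the 3 mutants lay at or under 2.33 CPM and the remaining controls at 8.24 and 3.30 CPM. *Fshb* had log2 differences of -0.31 and -0.91 and *Tshr* of -0.04 and -0.28 in the fits with and without that library. Without control replicate 2, *Lhb*, *Fshb* and *Tshr* had unadjusted p-values of 0.00214, 0.0420 and 0.0187 from edgeR. In that fit 1203 of the 15565 tested genes had one under 0.05. After adjustment 0 of the 8 genes passed, where 0.296% of all tested genes did. The fit leaves out the library for which the set was chosen, so nothing is read from these p-values. The negative estimates of *Lhb* thus did not pass the test. With all 6 samples its genotypes overlapped, since control replicate 2, at 0.582 CPM, lay below every mutant.

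**Figure D3:**
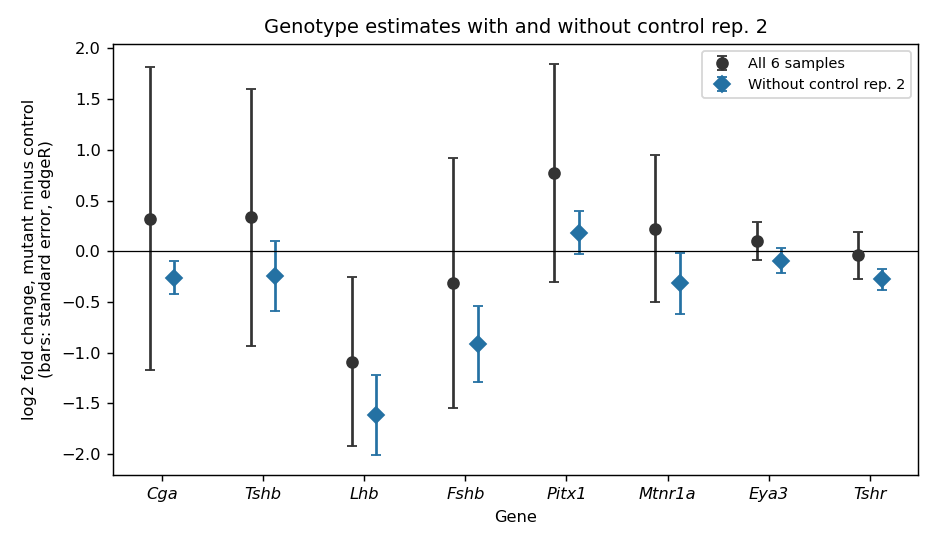
Log2 fold change of mutant against control for the 8 genes, with standard errors from edgeR as bars, from all 6 samples (black circles) and without control replicate 2 (blue diamonds). For *Cga* the estimate moves from 0.32 to -0.26 and its standard error from 1.49 to 0.16.

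Genes that mark the other cells of the pituitary were read from the same libraries, to see which lobe the transcripts could come from. Growth hormone, *Gh*, had 9 counts in control replicate 3, 1 in mutant replicate 3 and 0 in the other 4 libraries. Prolactin, *Prl*, was at 0.737, 0 and 4.81 CPM in controls and 3.63, 0.126 and 0 CPM in mutants. *Gh* and *Prl*, the main products of the pars distalis, were thus at or below the floor in mutant replicates 2 and 3, where *Cga* was at 396 and 372 CPM, while *Prl* was above it in control replicates 1 and 3 and mutant replicate 1. The lineage factors *Pou1f1* and *Pax7* and the receptor *Ghrhr* were at 0.466 CPM or less in every library.

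*Gnrhr*, the gonadotropin-releasing hormone receptor of gonadotrophs, was by contrast present. It was at 10.8, 0.0582 and 4.45 CPM in controls and 9.24, 4.52 and 6.59 CPM in mutants. *Foxl2*, which activates *Fshb*, was at 4.09, 0.233 and 4.45 CPM in controls and 5.94, 3.77 and 3.93 CPM in mutants. Both were lowest in control replicate 2, as the 8 genes were. *Tbx19*, the factor of corticotrophs and melanotrophs, did not follow them, at 9.52, 6.57 and 5.67 CPM in controls and 5.03, 2.39 and 2.40 CPM in mutants.

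Of 18 further pituitary transcription factors 13 were tested, and 8 of the 13 were lowest in control replicate 2, against 21.7% of all tested genes. *Gata2* and *Lhx3*, both factors of anterior pituitary cells, were at 2.73 and 0.640 CPM in that library, and no other library was under 21.7 and 4.06 CPM. *Six3* (136 CPM on average) and *Isl1* (69.4 CPM), which hypothalamic cells also express, had 128 and 71.0 CPM there. Between genotypes 0 of the 13 passed edgeR's test over all genes, and 4 had an unadjusted p-value under 0.05, against 8.85% of all tested genes. The median log2 difference was 0.45, against 0.0036 over all tested genes. In 4 of the 13 the genotypes did not overlap (3 higher and 1 lower in mutants), against 15.8% of all tested genes. *Six3* and *Six6* were higher in every mutant than in every control, with log2 differences of 0.30 (standard error 0.10, adjusted *p* = 0.395 from edgeR) and 0.35 (standard error 0.12, adjusted *p* = 0.386). In *Tbx19* all mutants lay below all controls, with a log2 difference of -1.17 (standard error 0.33) and an adjusted *p* of 0.291 from edgeR. A replicate block in edgeR gave 0.0441, though same-numbered samples were not taken as pairs.

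Of 9 other glycoprotein hormone and receptor genes 5 were tested and 0 passed (median log2 difference -0.51). Before adjustment 1 was under 0.05, against 8.85% of all tested genes, and in 3 the genotypes did not overlap, against 15.8%. The subunits of thyrostimulin, *Gpha2* and *Gphb5*, and the FSH receptor *Fshr* did not pass the filter on low counts. *Trhr*, the receptor for thyrotropin-releasing hormone, was tested and was at 24.7, 25.7 and 22.6 CPM in controls and 29.2, 27.0 and 26.7 CPM in mutants, with no deficit in control replicate 2. *Gnrh1* was at 8.44, 5.003 and 4.23 CPM in controls and 3.80, 3.33 and 2.80 CPM in mutants, lower in each mutant than in each control (log2 difference -0.84, standard error 0.29, adjusted *p* = 0.402 from edgeR).

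Of 12 melatonin and photoperiod genes 11 were tested and 0 passed edgeR's test, with a median log2 difference of 0.21. An unadjusted p-value under 0.05 was found for 1, against 8.85% of all tested genes. In 1 the genotypes did not overlap, against 15.8%. *Mtnr1b*, the second melatonin receptor, did not pass the filter. *Hlf* and *Tef*, PAR bZIP factors that bind D-boxes, averaged 427 and 110.5 CPM, and *Gpr50*, a receptor related to the melatonin receptors and made by tanycytes, 314 CPM. *Tef* was higher in every mutant than in every control (log2 difference 0.21, standard error 0.07, adjusted *p* = 0.408 from edgeR). *Timeless* followed the pattern of *Cga* in weaker form, at 3.08 CPM in control replicate 2 and between 25.9 and 54.7 CPM elsewhere, and *Hlf* less so, at 268 CPM there and between 421 and 482 CPM elsewhere.

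Of 12 genes that handle thyroid hormone, the step that TSH from the pars tuberalis controls, 11 were tested and 0 passed edgeR's test. An unadjusted p-value under 0.05 was found for 5, against 8.85% of all tested genes. In 4 the genotypes did not overlap (2 higher and 2 lower in mutants), against 15.8%. The median log2 difference was 0.13. *Dio2*, the deiodinase that activates thyroid hormone in tanycytes, was at 421, 276 and 321 CPM in controls and 613, 477 and 649 CPM in mutants. Every mutant lay above every control (339 ± 74.4 against 579 ± 90.4 CPM, SD, n = 3 each), with a log2 difference of 0.77 (standard error 0.17) and an adjusted *p* of 0.189 from edgeR and 0.000417 from DESeq2. *Thrb*, a thyroid hormone receptor, was at 148, 142 and 151 CPM in controls and 106, 117 and 105 CPM in mutants. Every mutant lay below every control, with a log2 difference of -0.43 (standard error 0.08) and an adjusted *p* of 0.0706 from edgeR and 0.00135 from DESeq2. Without control replicate 2 the estimates were 0.64 for *Dio2* and -0.45 for *Thrb*, where edgeR's adjusted p-values were 0.270 and 0.0641. With edgeR, *Thrb* passed with a minimum of 1 count in any sample (adjusted *p* = 0.0246). A replicate block in edgeR gave 0.0108 for *Dio2* and 0.0437 for *Thrb*, though same-numbered samples were not taken as pairs. The calls thus depended on tool, filter and design. DESeq2 was not run without control replicate 2. *Dio3*, the inactivating deiodinase, was at 0.335, 0.524 and 0.359 CPM in controls and 1.32, 0.817 and 1.07 CPM in mutants, with at most 16 counts per library. It too was higher in every mutant than in every control. Its log2 difference was 1.35 (standard error 0.46, adjusted *p* = 0.394 from edgeR). *Ttr*, which is abundant in choroid plexus, ranged from 16.8 CPM in control replicate 2 to 391 CPM in mutant replicate 2.

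Markers of other tissues next to the ARC moved with the 8 genes in part. The 9 genes of pars distalis and intermedia lineages summed to 7.10 CPM in control replicate 2 and to between 10.99 and 25.2 CPM elsewhere, of which *Tbx19* gave 6.57 CPM in the former. Of 11 tanycyte genes 8 were lowest in control replicate 2, which was the lowest library for 21.7% of all tested genes. The summed level of the 11 was 939 CPM there and between 1394 and 2424 CPM elsewhere. *Scn7a*, *Col23a1* and *Gpr50*, the most abundant of them, were at 246.5, 134 and 277 CPM in that library. The 8 meningeal fibroblast genes summed to 101.0 CPM there and to between 178 and 384.5 CPM elsewhere, with 6 of 8 lowest there, among them *Dcn* at 33.4 CPM against at least 88.9 CPM elsewhere. The 8 endothelial genes summed to 84.9 CPM and to between 153 and 174 CPM elsewhere, again with 6 of 8 lowest. The 7 genes of the ventromedial nucleus, which lies above the ARC, summed to 221 CPM there, inside the range of 99.9 to 335 CPM of the other libraries. The globin genes *Hba-a1*, *Hba-a2*, *Hbb-b1* and *Hbb-b2* were listed at 0 in all libraries, and *Alas2* was between 3.60 and 5.91 CPM. Against the next lowest library, control replicate 2 was 6.27-fold lower in the summed level of the 8 genes. It was between 1.49-fold and 1.80-fold lower in those of the pars distalis, tanycyte, meningeal and endothelial lists. The part of these lists in the result was not tested. The sums join unlike genes, since *Tshr* and *Eya3* gave 57.8 and 29.2 of the 93.4 CPM of the 8 genes there. *Tbx19* likewise gave most of the pars distalis sum. In that list *Gnrhr* and *Foxl2* were at 0.0582 and 0.233 CPM there and at least 4.45 and 3.77 CPM elsewhere, while *Prl* was at 0 there and in mutant replicate 3. Single markers could lie further apart than their list, such as the endothelial *Emcn* at 2.79 CPM there and at least 17.5 CPM elsewhere. No gene of the tanycyte, meningeal, endothelial or blood lists passed edgeR's test between genotypes, with or without control replicate 2.

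**Figure D4:**
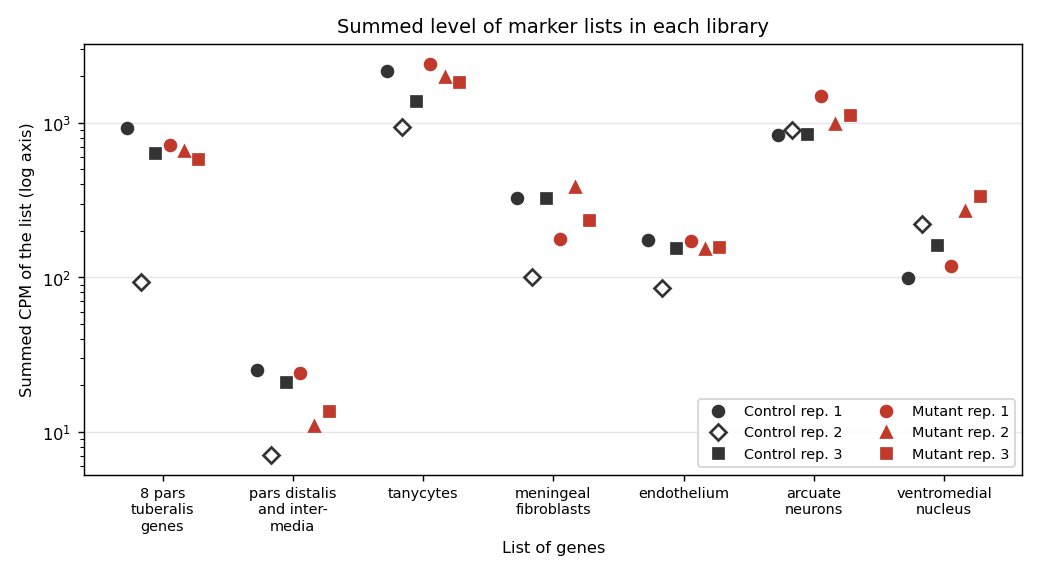
Summed CPM of 7 lists of genes in each library on a log axis, with controls in black, mutants in red and control replicate 2 as an open diamond. The diamond is lowest for the 8 pars tuberalis genes (93.4 CPM), for pars distalis and intermedia, tanycyte, meningeal and endothelial genes, and lies within the range of the others for ARC neurons and the ventromedial nucleus.

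The 10 genes whose profile over the 6 libraries lay nearest to that of *Cga* were taken by the root mean square difference of mean-centred log2 CPM over the 15236 tested genes. The nearest was *Epcam*, an epithelial adhesion molecule, with a difference of 0.48, at 57.3, 0.873 and 54.7 CPM in controls and 77.6, 57.6 and 59.2 CPM in mutants. Also among the 10 were *Tshb* (0.60), *Apoa4* (0.63), *Pitx1* (0.69), *Btnl9* (0.69), *Cck* (0.72), *Cyp2f2* (0.73), *Fshb* (0.76) and *Gnrhr* (0.77). Of the 7 other genes described here 3 were thus among the 10 nearest. *Mtnr1a* ranked 72, *Lhb* 205, *Tshr* 898 and *Eya3* 1081. All of these profiles share the same low library, which carries most of the measure.

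**Figure D5:**
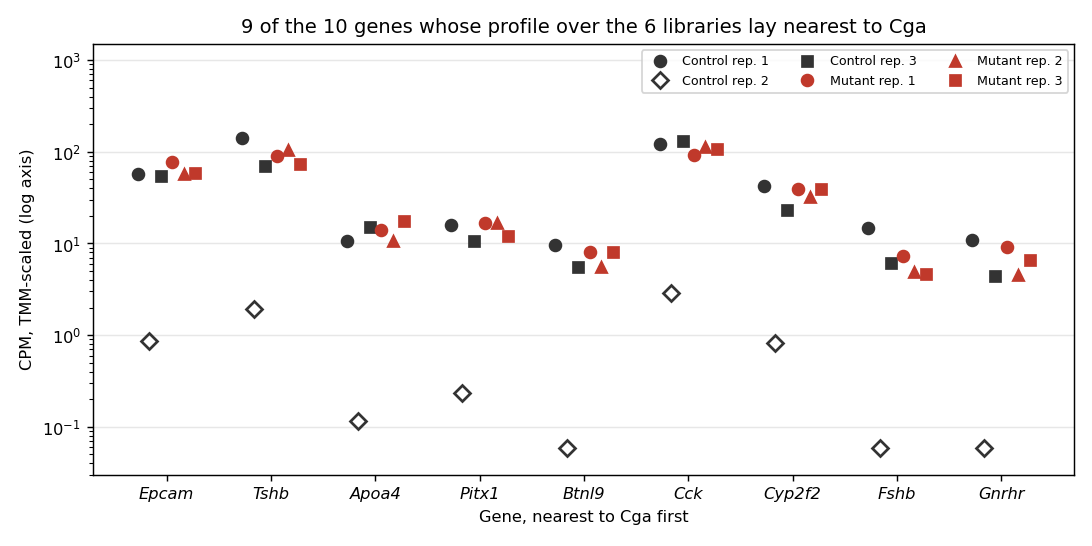
Level of 9 of the 10 genes nearest to *Cga* in each library, in CPM on a log axis and ordered by nearness, with controls in black, mutants in red and control replicate 2 as an open diamond. In each gene the diamond lies far below the other 5 libraries, as for *Epcam* at 0.873 CPM against at least 54.7 CPM.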

How the data were processed

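The authors mapped reads with TopHat2 2.1.0 to a build given as mm9 in the submitters' processing notes, counted them on exons with HTSeq 0.6 and deposited the raw counts per gene symbol, 1 file per sample. The strand setting is not given in the sources used here. Positions and exon lengths are those of GENCODE for NCBIM37, matched by symbol. Total counts, floors and library labels were read from the files. Mutants were compared with controls by edgeR 4.0.16 (quasi-likelihood test, robust dispersions, TMM, filterByExpr) in R 4.3.3, with Benjamini-Hochberg adjustment over 15236 genes and a threshold of 0.05. DESeq2 1.42.0, the tool of the study, and limma voom 3.58.1 were alternatives, with RLE scaling, other filters, a replicate block and each sample left out. The scripts were tested in 5 runs on simulated data with 200 of 15236 genes changed. At the same threshold, unchanged genes made up 8.49% of edgeR's calls, 15.8% of DESeq2's and 7.79% of voom's. No pair of libraries differed by as little as sampling noise (chi-square per degree of freedom at least 6.90). Genes named are *Esr1*, the 8 members, genes among the 4 most abundant of each list, the pars distalis list and the 10 genes nearest to *Cga*. Further genes of the lists were named after their values were seen. Members and lists were chosen with earlier results of these data known. Some genes of the lists are not reported here by name.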

Additional observations from a re-analysis of the deposited data

How the results depend on the processing

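None of the 8 genes passed the threshold under any alternative in which it was tested. *Fshb*, *Pitx1* and *Mtnr1a* had too few reads in control replicate 2 for the filter of 10 counts per sample and were not tested there. The number of genes called over the whole table was 18 with edgeR, 191 with DESeq2, 106 with a minimum of 1 count in any sample, 123 with the replicate block, and between 7 and 46 when 1 sample was left out, highest without control replicate 2 and lowest without mutant replicate 3 (9 without mutant replicate 2). Of the 5 pathway lists 0 genes were called with edgeR, 2 with DESeq2 (*Dio2* and *Thrb*), 1 with a minimum of 1 count (*Thrb*) and 3 with the replicate block (*Dio2*, *Thrb* and *Tbx19*), and 0 whichever sample was left out. The cause was not tested. Replicate numbers are shared by the genotypes, but deviations of same-numbered samples had r of 0.281, 0.0466 and -0.00264 across genes, so the numbers were not taken as pairs, and control replicate 2 correlated best with mutant replicate 3 (0.210).

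Signs turned for 6 of the 8 genes. *Fshb* had a log2 fold change of 1.66 with limma voom and 0.31 with the replicate block, and *Tshr* one of 0.017 and 0.0077. With 1 sample left out, estimates ran from -0.26 to 1.01 for *Cga*, from -0.25 to 1.31 for *Tshb*, from -0.91 to 0.90 for *Fshb*, from -0.32 to 0.90 for *Mtnr1a*, from -0.093 to 0.24 for *Eya3* and from -0.28 to 0.16 for *Tshr*. The range of *Lhb* was -1.62 to -0.013. Plain or RLE-scaled library sizes moved each mean level by less than its SD. With a prior count of 0.5 in place of 2, 7 of the 10 genes nearest to *Cga* were shared. The 3 samples per genotype, and in control replicate 2 counts of 10 or fewer for *Lhb*, *Fshb*, *Pitx1* and *Mtnr1a*, limit the precision.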

Other observations

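The 75 genes at under 1/10 of the lowest other library in control replicate 2 included, besides *Cga*, *Tshb*, *Fshb* and *Pitx1*, genes of epithelia, named here after their values were seen. *Esrp1*, a splicing factor of epithelial cells, was at 10.1, 0.349 and 7.60 CPM in controls and 10.6, 6.97 and 6.06 CPM in mutants. *Cldn3*, a tight junction protein, and *Krt8*, a keratin of simple epithelia, were listed at 0 there and between 0.866 and 2.31 CPM and between 0.817 and 1.73 CPM elsewhere. *Six2*, a homeodomain factor, was at 0.116 CPM there and between 5.66 and 9.49 CPM elsewhere. *Bpifa1*, a secreted protein of airway epithelium, had 0 counts there and reached 94.4 CPM in mutant replicate 1, against 6.63 CPM or less in the other libraries.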
